A study of Mus musculus with 12 samples.

Results

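Dkc1 encodes dyskerin, the enzyme that converts uridine to pseudouridine in ribosomal RNA. It is described here with 9 other genes of the nucleolar RNA modification machinery, over 12 bulk RNA libraries of B16 mouse melanomas. The 10 genes were taken by symbol from a table of 32416 gene symbols. They were selected on the TPM values of Dkc1, which was lower in every Aoah tumour than in every Vector tumour of the B16mhgp100 model. That contrast is therefore given as a description with no test, for all 10 genes.

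The tumours grew under the skin of C57BL/6 mice from B16 cells that either over-expressed Aoah, the gene of acyloxyacyl hydrolase, a lipase known for deacylating bacterial lipopolysaccharide, or carried the empty Vector. There were 4 Aoah and 4 Vector tumours of B16mhgp100, all given anti-PD1 from day 10 after inoculation, and 2 Aoah and 2 Vector tumours of B16F10, all given anti-PD1 plus anti-CTLA4 from day 6. Both antibodies block T cell checkpoint receptors. Mice had 4 doses of 200 µg of each antibody, at 2 doses a week, and the harvest followed the final dose by 1 day. No untreated tumours are part of the comparison. The sources used here do not state whether a line was 1 clone or a pool, the promoter that drove Aoah, or the mice's age. Nothing says that the tumours came from separate mice, so the p-values measure only the spread between these tumours.

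Small nucleolar RNAs guide 2 kinds of change in ribosomal RNA. H/ACA guides work with dyskerin, Nhp2, Nop10 and Gar1 to make pseudouridine, and the same 4 proteins are part of telomerase. C/D guides work with fibrillarin (Fbl), Nop56 and Nop58 to add methyl groups to ribose. Nucleolin (Ncl), nucleophosmin (Npm1) and Nolc1 are abundant nucleolar phosphoproteins that act in ribosomal RNA synthesis, ribosome assembly and transport, and the chaperoning of these particles. Dividing and growing cells are known to make much of all of them.

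The label of a library was checked with Aoah itself. Aoah stood at 21.75 and 23.73 TPM in the B16F10 Aoah tumours, against 1.49 and 0.75 TPM in the Vector tumours. TPM is a transcript level scaled for transcript length and library total. In B16mhgp100, Aoah stood at 17.92, 22.46, 13.96 and 3.91 TPM in the libraries labelled Aoah 1 to Aoah 4, against 7.58, 0.89, 2.43 and 1.57 TPM in Vector 1 to Vector 4. The library labelled B16mhgp100 Aoah 4 thus lay within the Vector range, and its label is not supported by this gene. Its summed level of 8 keratinocyte markers was 5743 TPM, against at most 31.78 TPM in the other 11 libraries. Its 8 skeletal muscle markers summed to 5532 TPM, against at most 776.3 TPM elsewhere. Its 12 melanocyte markers summed to 8239 TPM, against at least 16738 TPM elsewhere, and its 20 cell cycle markers to 1577 TPM, against at least 2019 TPM. Differences between the B16mhgp100 arms computed here are given with and without this library. Group means, ranges and comparisons of the models include it unless stated. In bulk tumour RNA, fewer cells of a type and less RNA per cell cannot be told apart. All 12 melanocyte markers were at 1 TPM or more in every library.

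The 100 bases before the start of Dkc1 and Nop10, the same stretch for Gar1, and a 30-base stretch for Nhp2 are shown because the 4 H/ACA genes encode 1 complex while their levels differed in how they moved. The sequences are from RefSeq on GRCm38.p6, 5′ to 3′ on the gene's strand. Capitals mark CCGGAAGT, the binding sequence of ETS family factors, or its reverse complement ACTTCCGG.
Dkc1, chrX:75095754-75095853, plus strand: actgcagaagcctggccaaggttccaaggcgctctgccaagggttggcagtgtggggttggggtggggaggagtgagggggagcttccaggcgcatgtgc
Nop10, chr2:112261826-112261925, plus strand: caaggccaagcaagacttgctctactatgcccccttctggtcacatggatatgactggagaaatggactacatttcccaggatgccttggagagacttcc
Gar1, chr3:129831397-129831496, minus strand: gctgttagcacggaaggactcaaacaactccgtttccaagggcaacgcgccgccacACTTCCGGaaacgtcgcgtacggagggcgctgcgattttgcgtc
Nhp2, chr11:51619739-51619768, plus strand: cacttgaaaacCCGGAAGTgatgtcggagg
Promoter windows running from 250 bases before to 50 bases after the start were found for 8 of the 10 genes. Fbl and Npm1 had no entry. CCGGAAGT, searched on both strands, was in 2 of these 8 windows, Gar1 and Nhp2, and in 3.89% of all 32851 windows. CACGTG, the E-box bound by Myc and other factors, is its own reverse complement. It was in 0 of the 8 windows and in 7.15% of all windows. These are matches of letters in a window of 300 bases and say nothing of binding. G and C made up 53.0% of the Dkc1 window, against a median of 52.7% over all windows, and between 45.3% (Nop58) and 69.3% (Ncl) of the others.

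The other positions are given by chromosome only, from the reference annotation on GRCm38, since the deposited values were made on mm39. Dkc1 (ENSMUSG00000031403) lies on chromosome X, Nhp2 (ENSMUSG00000001056) on chromosome 11, Nop10 (ENSMUSG00000027133) on chromosome 2 and Gar1 (ENSMUSG00000028010) on chromosome 3. Nop56 (ENSMUSG00000027405) lies on chromosome 2, Nop58 (ENSMUSG00000026020) on chromosome 1 and Fbl (ENSMUSG00000046865) on chromosome 7. Ncl (ENSMUSG00000026234) lies on chromosome 1, Npm1 (ENSMUSG00000057113) on chromosome 11 and Nolc1 (ENSMUSG00000015176) on chromosome 19. Several of these genes carry small nucleolar RNA genes inside their bodies. The annotation places 5 in Nop56, 4 in Nop58, 3 in Ncl and 1 in Dkc1, and 0 in each of the other 6 genes. Dkc1 overlaps the coding gene Mpp1 by 45 bases, Nhp2 overlaps Rmnd5b by 44 bases and Nop56 overlaps Idh3b by 5 bases, so reads in those stretches could be assigned to either gene. Mpp1, whose product is a membrane scaffold protein, averaged 32.5 ± 13.5 TPM in B16mhgp100 Aoah tumours, against 35.5 ± 4.09 TPM in Vector tumours (SD over n = 4 for either arm). Processed pseudogenes of Fbl and of an Npm1 relative were low. Fbl-ps2 averaged 7.16 TPM in B16mhgp100 Aoah tumours, against 7.40 TPM in Vector tumours, and Npm3-ps1 averaged 0.79 TPM in Aoah tumours, against 1.08 TPM in Vector tumours.

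Averaged over the 12 libraries, Npm1 had the highest level, at 969.5 ± 301.8 TPM (SD). Ncl followed at 429.3 ± 308.9 TPM, then Nhp2 at 314.7 ± 74.5 TPM and Fbl at 308.5 ± 42.2 TPM. Nop56 stood at 223.4 ± 75.9 TPM, Gar1 at 123.7 ± 11.6 TPM and Nop58 at 100.7 ± 38.2 TPM. The lowest were Nop10 at 81.2 ± 14.02 TPM, Dkc1 at 58.7 ± 27.7 TPM and Nolc1 at 54.9 ± 21.1 TPM. Neighbours in this order, from Ncl through Nhp2 and Fbl and from Gar1 through Nop58 and Nop10 to Dkc1 and Nolc1, differed by less than the larger of their SDs over the libraries. Within the H/ACA complex, Gar1 had the smallest SD over the libraries. Dkc1 was the lowest of the 4 subunits on average in both Aoah groups and in B16F10 Vector tumours, but not in B16mhgp100 Vector tumours, where it averaged 86.6 TPM and Nop10 77.2 TPM.

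**Figure D1:**
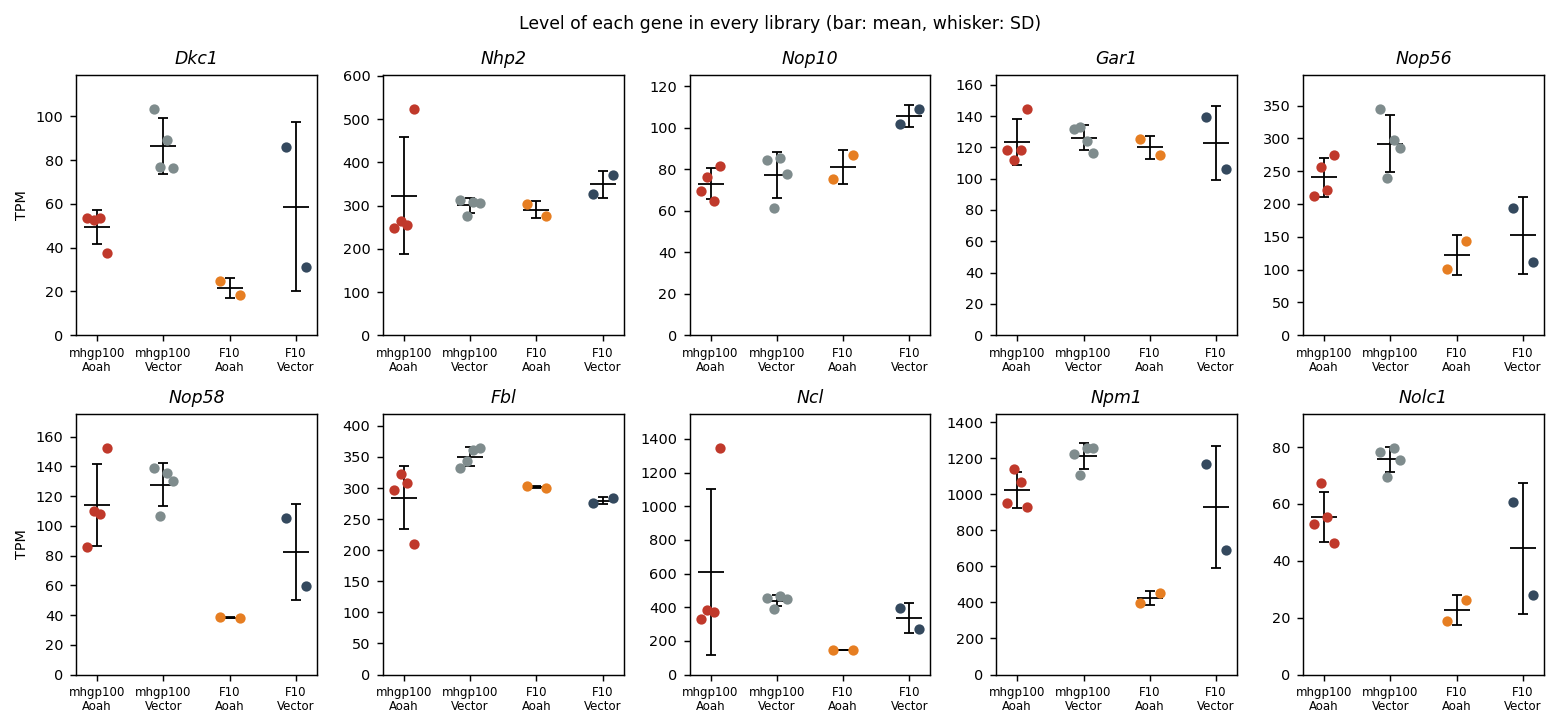
Level in TPM of each of the 10 genes in every library (points), with the mean (bar) and SD (whisker) of each group; each panel has its own axis from 0. B16mhgp100 Aoah tumours of Dkc1 sit between 37.68 and 53.66 TPM, below all Vector tumours of that model, and the library Aoah 4 is the far point for Nhp2 and Ncl.

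The contrast that chose the genes comes first. In B16mhgp100, Dkc1 stood at 53.42, 52.49, 53.66 and 37.68 TPM in Aoah 1 to Aoah 4, against 103.58, 77.08, 89.11 and 76.60 TPM in Vector 1 to Vector 4. The groups did not overlap, with 53.66 TPM the highest Aoah tumour and 76.60 TPM the lowest Vector tumour. The mean was 49.3 ± 7.77 TPM in Aoah tumours, against 86.6 ± 12.7 TPM in Vector tumours (SD over n = 4 for either arm). The difference of mean log2(TPM + 1) was -0.80, with a pooled SD of 0.22. Without Aoah 4 it was -0.68, and the other 3 Aoah tumours averaged 53.2 ± 0.618 TPM (SD). All fold changes and differences below are Aoah minus Vector on this log2(TPM + 1) scale unless the tumour models are compared. The median over all 14228 genes kept in this model was itself -0.20, so that Dkc1 was 0.60 below the median gene. Without Aoah 4 the median of all genes was -0.02. Markers of other cell types are given for the same arms, and their part in the levels was not tested. The median difference was 0.47 over 8 fibroblast markers, with 0 below 0, and 0.53 without Aoah 4, again with 0 below 0. Over 11 kept leukocyte markers it was 0.24, with 2 below 0, and 0.47 without Aoah 4, with 1 below 0. Over 12 melanocyte markers it was -0.67, with 12 below 0, and -0.19 without Aoah 4, with 11 below 0. Over 6 endothelial markers it was -0.32, with 5 below 0, both with and without Aoah 4. The summed levels of the arms overlapped for each of these lists. Fibroblast markers summed to between 115.1 and 2168 TPM in Aoah tumours and between 131.4 and 898.7 TPM in Vector tumours. Leukocyte markers summed to between 186.0 and 2468 TPM in Aoah tumours and between 174.2 and 1044 TPM in Vector tumours. Melanocyte markers summed to between 8239 and 24784 TPM in Aoah tumours and between 18492 and 30512 TPM in Vector tumours.

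The 3 partners of dyskerin did not share its separation. Nhp2, which binds the guide RNA, stood at 248.33, 264.52, 254.95 and 524.58 TPM in the Aoah tumours, against 311.98, 275.73, 309.03 and 306.95 TPM in the Vector tumours. Its Aoah 4 value was the highest of all 12 libraries, while Aoah 1 to Aoah 3 lay below all 4 Vector values. The difference was 0.03 with Aoah 4 and -0.23 without it. Nop10, a small protein that binds beside the active site of the enzyme in archaea and yeast, ran between 64.63 and 81.42 TPM in Aoah tumours and between 61.18 and 85.38 TPM in Vector tumours, so that the groups overlapped. Gar1, which helps the enzyme release its product in archaea and yeast, ran between 112.2 and 144.8 TPM in Aoah tumours and between 116.4 and 132.9 TPM in Vector tumours, again with overlap.

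The ratio of Dkc1 to a partner within a library does not depend on the library total. The Dkc1 to Gar1 ratio was 0.450, 0.468, 0.454 and 0.260 in B16mhgp100 Aoah 1 to Aoah 4, against 0.786, 0.580, 0.719 and 0.658 in Vector 1 to Vector 4. Every Aoah tumour lay below every Vector tumour. The Dkc1 to Nop10 ratio ran between 0.463 and 0.830 in Aoah tumours and between 0.986 and 1.26 in Vector tumours. For Dkc1 to Nhp2 the ranges were 0.0718 to 0.215 in Aoah tumours and 0.250 to 0.332 in Vector tumours. In B16F10 the Dkc1 to Gar1 ratio was 0.197 and 0.159 in the Aoah tumours, against 0.617 and 0.297 in the Vector tumours. The Dkc1 to Nop10 ratio there was 0.327 and 0.210 in Aoah tumours, against 0.845 and 0.287 in Vector tumours, and the groups overlapped. For Dkc1 to Nhp2 in B16F10 it was 0.081 and 0.0659 in Aoah tumours, against 0.263 and 0.0846 in Vector tumours. Vector 2 was thus just above Aoah 1. These ratios use the contrast that chose Dkc1 and are a description for B16mhgp100.

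**Figure D2:**
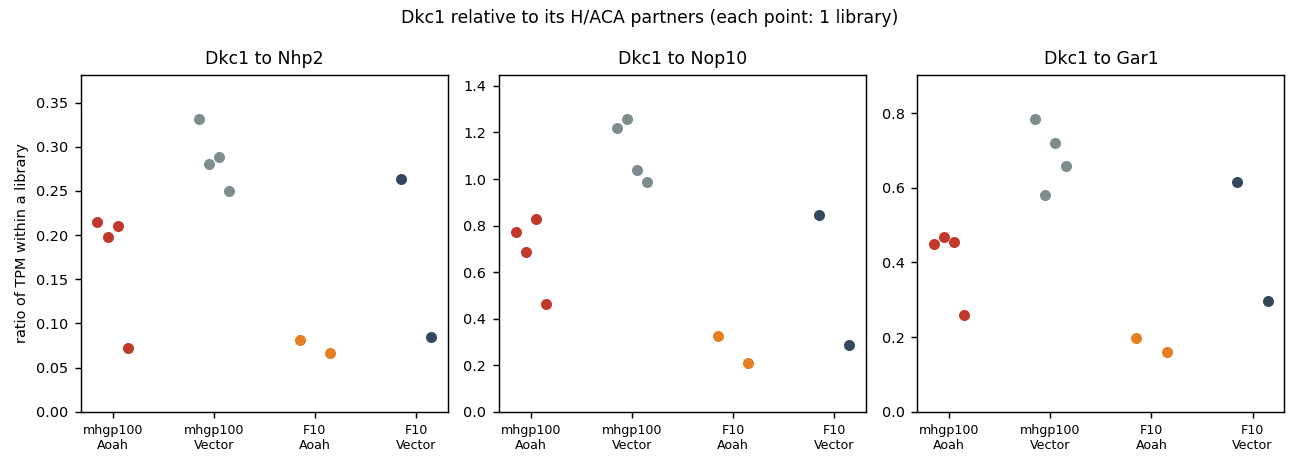
Ratio of the TPM of Dkc1 to that of Nhp2, Nop10 and Gar1 within each library (1 point a library); the axes start at 0. B16mhgp100 Aoah tumours lie below the Vector tumours of that model in all 3 panels, with Dkc1 to Gar1 at most 0.468 in Aoah tumours and at least 0.580 in Vector tumours, and the 2 B16F10 Vector tumours lie far apart.

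The C/D proteins and the phosphoproteins differed among themselves in B16mhgp100. Fbl, the methyltransferase of the C/D particle, stood at 297.63, 322.01, 308.32 and 209.38 TPM in Aoah 1 to Aoah 4, against 332.17, 343.79, 361.18 and 364.66 TPM in the Vector tumours. Every Aoah tumour was lower, by a difference of -0.32, or -0.18 without Aoah 4. Nolc1, which binds both kinds of particle, stood at 52.99, 67.39, 55.39 and 46.14 TPM in Aoah tumours, against 78.11, 69.46, 79.72 and 75.30 TPM in Vector tumours. Its groups did not overlap either, and the difference was -0.45, or -0.37 without Aoah 4. Nop56 and Nop58, the scaffold proteins of the C/D particle, overlapped between the groups, with differences of -0.27 and -0.18. Without Aoah 4 these differences were -0.34 and -0.33. Npm1 ran between 928.3 and 1142 TPM in Aoah tumours and between 1104 and 1257 TPM in Vector tumours, a difference of -0.25 with overlap. Without Aoah 4 the difference of Npm1 was -0.20.

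Ncl was the gene that rested most on 1 library. It stood at 331.56, 383.68, 370.33 and 1347.43 TPM in Aoah 1 to Aoah 4, against 457.38, 390.03, 465.06 and 447.77 TPM in Vector 1 to Vector 4. The difference was 0.19 with Aoah 4 and -0.28 without it, where all 3 remaining Aoah tumours lay below the 4 Vector tumours. The part of the skin and muscle markers of Aoah 4 in these values was not tested.

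Counted over the 10 genes, 3 (Dkc1, Fbl and Nolc1) were lower in every B16mhgp100 Aoah tumour than in every Vector tumour, where 5.15% of all kept genes were. Dkc1 is among these 3 by the choice of the list, and nothing is read from the count. In the other direction 0 of the 10 genes and 0.731% of all kept genes were separated. Without Aoah 4 there were 5, with Nhp2 and Ncl added, where 6.26% of all kept genes were. Scaling the libraries by the median of ratios moved the median of all genes up by 0.177 and left only Dkc1 separated. The median difference over the 10 genes was -0.21, against -0.20 over all kept genes. Without Aoah 4 it was -0.26 against -0.02, and all 10 genes were below 0, while 8 were with all libraries and 5 after median-of-ratios scaling. The authors' deposited table for B16mhgp100 held Dkc1 at a log2 fold change of -0.61 with an adjusted p of 0.194, and it had 0 genes lower (0.0%) and 3 genes higher (0.0146%) past 0.05. Dkc1 was chosen on this contrast in these tumours, so nothing is read from its p. In that table Ncl had no adjusted p.

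The B16F10 tumours were not used to choose the genes, and they address the same question of Aoah over-expression under a second antibody regimen. Lower levels in both Aoah tumours were seen for Dkc1, Nop58, Ncl, Npm1, Nolc1, Nhp2 and Nop10, while Fbl was above and Gar1 and Nop56 overlapped. Of all kept genes, 22.6% were lower in this way and 28.0% were higher. No gene of the 10 passed the test with 2 tumours against 2. In limma, with p adjusted over 14533 genes, 0 of the 10 genes were past 0.05, where 50 of all genes (0.344%) were. Of all genes 0.055% were lower at that threshold. At an unadjusted p under 0.05 there were 4 of the 10 (Dkc1, Nop58, Ncl and Npm1), all lower in Aoah tumours, where 7.28% of all genes were lower at that level. At that level 2642 genes passed in either direction.

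Dkc1 stood at 24.66 and 18.25 TPM in the B16F10 Aoah tumours, against 86.10 and 31.40 TPM in the Vector tumours. Vector 1 was far above the other 3, and Vector 2 was closer to the Aoah tumours than to Vector 1. The log2 fold change was -1.26 (SE 0.48, limma adjusted p = 0.262), a ratio of 0.418 in TPM + 1. It was -0.54 without Vector 1 and -1.97 without Vector 2. Among the alternatives that kept every B16F10 library, the highest limma adjusted p was 0.464, with no filter. The lowest was 0.0135, with the replicate block, a pairing that the labels do not state. Apart from that block, the lowest limma adjusted p was 0.0596, in the fit of 11 libraries. The other H/ACA genes had log2 fold changes nearer to 0, of -0.26 for Nhp2 (SE 0.15), -0.38 for Nop10 (SE 0.17) and -0.02 for Gar1 (SE 0.19). Nop10 stood at 75.40 and 86.82 TPM in the Aoah tumours, against 101.88 and 109.25 TPM in the Vector tumours.

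Among the C/D proteins in B16F10, Nop58 stood at 38.47 and 37.90 TPM in the Aoah tumours, against 105.49 and 59.80 TPM in the Vector tumours. Its log2 fold change was -1.04 (SE 0.29, limma adjusted p = 0.171). Nop56 stood at 100.65 and 143.85 TPM in the Aoah tumours, against 193.61 and 110.97 TPM in the Vector tumours, and overlapped. Nop58 and Nop56 form a pair in the C/D particle. Their ratio was 0.382 and 0.263 in the B16F10 Aoah tumours, against 0.545 and 0.539 in the Vector tumours. The share of other gene pairs with separated ratios was not computed. In B16mhgp100 their ratio ran between 0.407 and 0.553 in Aoah tumours and between 0.401 and 0.456 in Vector tumours, with overlap. Fbl in B16F10 stood at 302.66 and 300.05 TPM in the Aoah tumours, against 275.99 and 283.84 TPM in the Vector tumours. For Fbl the log2 fold change was 0.11 (SE 0.14, limma adjusted p = 0.732). Both Aoah tumours were thus above both Vector tumours for Fbl, where 28.0% of all kept genes were.

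All 3 phosphoproteins were lower in both B16F10 Aoah tumours than in both Vector tumours, where 22.6% of all kept genes were. Ncl stood at 144.45 and 146.29 TPM in the Aoah tumours, against 396.90 and 270.18 TPM in the Vector tumours, a log2 fold change of -1.17 (SE 0.22, limma adjusted p = 0.102). Npm1 stood at 396.62 and 452.02 TPM in the Aoah tumours, against 1168.96 and 688.97 TPM in the Vector tumours. The log2 fold change of Npm1 was -1.08 (SE 0.27, limma adjusted p = 0.145). Nolc1 stood at 18.89 and 26.27 TPM in the Aoah tumours, against 60.69 and 27.97 TPM in the Vector tumours, so that Vector 2 was just above the Aoah tumours. Its log2 fold change was -0.86 (SE 0.40, limma adjusted p = 0.332).

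In all, 7 of the 10 genes were lower in both B16F10 Aoah tumours than in both Vector tumours, where 22.6% of all kept genes were. The median log2 fold change was -0.62 over the 10 genes and 0.02 over all genes tested. In both models, Dkc1 and Nolc1 were lower in every Aoah tumour than in every Vector tumour of the same model. That held for 1.88% of the 13588 genes kept in both models, and Dkc1 meets it in B16mhgp100 by choice. In the authors' deposited table for B16F10, 5 of the 10 genes were lower with an adjusted p under 0.05, where 3.88% of its genes with an adjusted p were. They were Ncl at a log2 fold change of -1.19 (adjusted p = 1.84e-06), Npm1 at -1.12 (0.00017), Nop58 at -1.10 (0.00267), Dkc1 at -1.41 (0.00978) and Nolc1 at -0.95 (0.047), all in the authors' deposited table. Higher past the threshold there were 0 of the 10 genes, where 4.65% of its genes were. It rests on the same 4 tumours as the limma fit, so the calls of the 2 analyses differed on the same data.

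Markers of other cell types are given for the B16F10 arms too. The 14 leukocyte markers summed to between 794.5 and 801.9 TPM in Aoah tumours and between 462.4 and 494.6 TPM in Vector tumours. The 6 endothelial markers summed to between 23.1 and 27.3 TPM in Aoah tumours and between 57.6 and 80.6 TPM in Vector tumours, and the 8 fibroblast markers summed to between 166.3 and 232.8 TPM in Aoah tumours and between 369.0 and 454.3 TPM in Vector tumours. The 12 melanocyte markers summed to between 31246 and 32312 TPM in Aoah tumours and between 20250 and 24075 TPM in Vector tumours. Among them, Pmel averaged 15236 TPM in Aoah tumours, against 7725 TPM in Vector tumours, while Mlana averaged 1223 TPM, against 1510 TPM. The 20 cell cycle markers summed to 2131 and 2301 TPM in the Aoah tumours, against 3427 TPM in Vector 1 and 2019 TPM in Vector 2. The 8 keratinocyte markers summed to between 19.9 and 22.6 TPM in Aoah tumours, with Dsg3 listed at 0 in both, and to between 0.53 and 17.28 TPM in Vector tumours. Among them, Krt10 averaged 11.4 TPM in Aoah tumours, against 0.43 TPM in Vector tumours, while Krt5 averaged 0.665 TPM, against 4.42 TPM. The 8 muscle markers summed to between 25.0 and 27.1 TPM in Aoah tumours and between 19.5 and 235.8 TPM in Vector tumours. The median log2 fold change was 0.94 over 11 kept leukocyte markers, with 0 below 0. Over 6 endothelial markers it was -1.15, with 6 below 0, and over 8 fibroblast markers -0.86, with 7 below 0. Over 12 melanocyte markers it was 0.45, with 2 below 0. Over 3 kept keratinocyte markers it was 2.57, with 0 below 0, and over 5 kept muscle markers -1.08, with 5 below 0. The part of these cell types in the levels of the 10 genes was not tested.

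**Figure D3:**
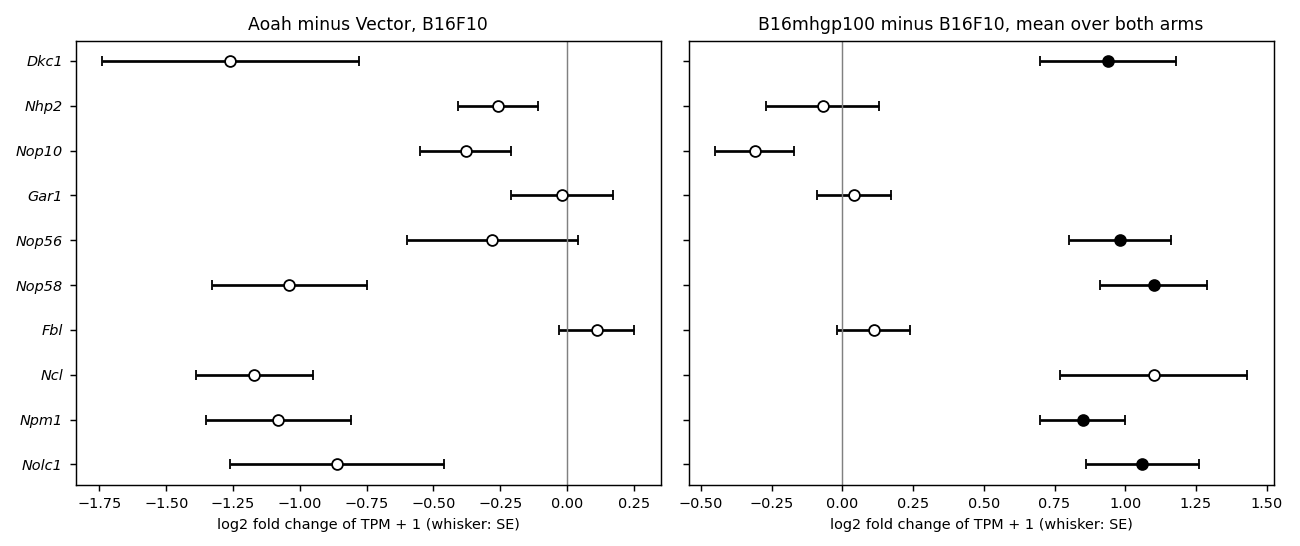
Log2 fold change of TPM + 1 (points) with its SE (whiskers) for the 10 genes, as Aoah minus Vector in B16F10 (left) and B16mhgp100 minus B16F10 averaged over both arms (right); filled points passed a limma adjusted p of 0.05 over all genes. On the left no point is filled and Dkc1 is lowest at -1.26; on the right Dkc1, Nop56, Nop58, Npm1 and Nolc1 are filled, between 0.85 and 1.10.

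The tumour models were compared by the mean over both arms, which does not use the Aoah minus Vector difference. The B16mhgp100 values on which Dkc1 was chosen do enter the fit and its SE, so the call of Dkc1 is not free of that choice. Model, antibodies and first day of treatment changed together and cannot be told apart. In limma, 5 of the 10 genes were higher in B16mhgp100 and 0 were lower, where 3.71% of 16556 genes were higher and 7.37% changed in either direction. The 5 were Dkc1, Nop56, Nop58, Npm1 and Nolc1. The median log2 fold change was 0.89 over the 10 genes and 0.03 over all genes tested.

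Nop58 averaged 114.1 ± 27.8 TPM in B16mhgp100 Aoah and 127.7 ± 14.6 TPM in B16mhgp100 Vector tumours (SD over n = 4 for either arm), against 38.2 ± 0.403 TPM in B16F10 Aoah and 82.6 ± 32.3 TPM in B16F10 Vector tumours (SD over n = 2 for either arm). Its log2 fold change was 1.10 (SE 0.19, limma adjusted p = 0.00629). Nop56 was the gene whose models did not overlap. Its lowest B16mhgp100 tumour was at 211.46 TPM and its highest B16F10 tumour at 193.61 TPM, a separation shown by 2.51% of all genes. In the other direction 0 of the 10 genes and 4.57% of all genes were separated. Its log2 fold change was 0.98 (SE 0.18, limma adjusted p = 0.0086). The values by arm were alike, with 0.99 between the Aoah tumours and 0.98 between the Vector tumours.

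Npm1 was 0.85 higher (SE 0.15, limma adjusted p = 0.00655) and Nolc1 1.06 higher (SE 0.20, limma adjusted p = 0.0102). Dkc1 was 0.94 higher (SE 0.24, limma adjusted p = 0.0407), a ratio of 1.92 in TPM + 1. By arm, Dkc1 was 1.16 higher between the Aoah tumours and 0.71 higher between the Vector tumours of the models. For Ncl these were 1.78 and 0.42, and for Npm1 1.26 and 0.43. The difference between arms was not tested. Ncl did not pass (1.10, SE 0.33, limma adjusted p = 0.0711), and its Aoah mean holds the value of 1347.43 TPM of Aoah 4. Gar1 (0.04, SE 0.13), Nhp2 (-0.07, SE 0.20), Fbl (0.11, SE 0.13) and Nop10 (-0.31, SE 0.14) did not pass either. A p that misses the threshold does not show that their levels were alike.

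The count of 5 depended on single libraries. Without B16mhgp100 Aoah 4, 9 of the 10 genes passed in limma, where 5303 of all 16261 genes did, against 1221 of 16556 with it. Ncl (0.86) and Fbl (0.18) were then also higher, and Nhp2 (-0.20) and Nop10 (-0.33) were lower. Without B16F10 Aoah 1, 1 of the 10 genes passed, Nop58, and 415 genes in all. The call of Dkc1 was lost without any one of 10 of the 12 libraries, all but B16mhgp100 Aoah 4 and B16F10 Vector 1, with limma adjusted p-values up to 0.196. Its log2 fold change stayed between 0.58 and 1.29. With no filter on low values the limma adjusted p of Dkc1 was 0.0697, and after removal of the length trend that of Nop58 was 0.0659.

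Other genes of the pathway were read from lists of the same machinery, by their counts and medians. In B16F10, Aoah minus Vector, 0 genes of these lists passed in limma, where 0.344% of all genes did. Of 10 assembly factors of the particles, 6 were below 0, with a median of -0.23. Snu13, which binds the C/D guide, averaged 128 TPM in Aoah tumours, against 164 TPM in Vector tumours, with a log2 fold change of -0.35 (SE 0.14). Ruvbl1, an ATPase of the assembly machinery, averaged 141 TPM in Aoah tumours, against 161 TPM in Vector tumours. Of 12 pseudouridine synthases that act without a guide, 5 were below 0 with a median of 0.05. Pus1, which modifies transfer RNA, had a log2 fold change of 0.11 (SE 0.19). Of 10 other enzymes of ribosomal RNA modification, 4 were below 0 with a median of 0.04, and Emg1, a pseudouridine methyltransferase, had a log2 fold change of 0.25 (SE 0.17).

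Most genes of the ribosome assembly lists were below 0. Of 36 genes of the small subunit processome, 25 were below 0 with a median of -0.18, against 0.02 over all genes. Fcf1, a nuclease-like assembly factor, averaged 63.7 TPM in B16F10 Aoah tumours, against 103 TPM in Vector tumours. Of 34 genes of large subunit assembly, 23 were below 0 with a median of -0.14. Of 20 genes of the RNA polymerase I machinery, 13 were below 0 with a median of -0.11. Of 16 kept host genes of small nucleolar RNAs that code for no protein, 14 were below 0 with a median of -0.31. Gas5, one of these hosts, averaged 288 TPM in Aoah tumours, against 375 TPM in Vector tumours, with a log2 fold change of -0.39 (SE 0.16, limma adjusted p = 0.283). Of 9 kept genes of telomerase and shelterin, 3 were below 0, and the median was 0.26. Npm3, a paralogue of Npm1, averaged 95.3 TPM in Aoah tumours, against 113 TPM in Vector tumours.

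In B16mhgp100 the same lists are described with no test, beside a median over all kept genes of -0.20, or -0.02 without Aoah 4. The processome had a median difference of -0.42 with 31 of 36 genes below 0, and -0.16 with 34 below 0 without Aoah 4. Large subunit assembly had -0.31 with 30 of 34 below 0, and -0.15 with 31 below 0 without Aoah 4. The guide-free pseudouridine synthases had -0.39, and -0.07 without Aoah 4. The non-coding host genes had a median of 0.26 with 2 of 15 below 0, and of 0.00 with 9 below 0 without it. The 4 H/ACA genes had a median of -0.06, and -0.18 without Aoah 4. The C/D proteins had -0.27, and -0.33 without it, and the phosphoproteins had -0.25, and -0.28 without it.

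**Figure D4:**
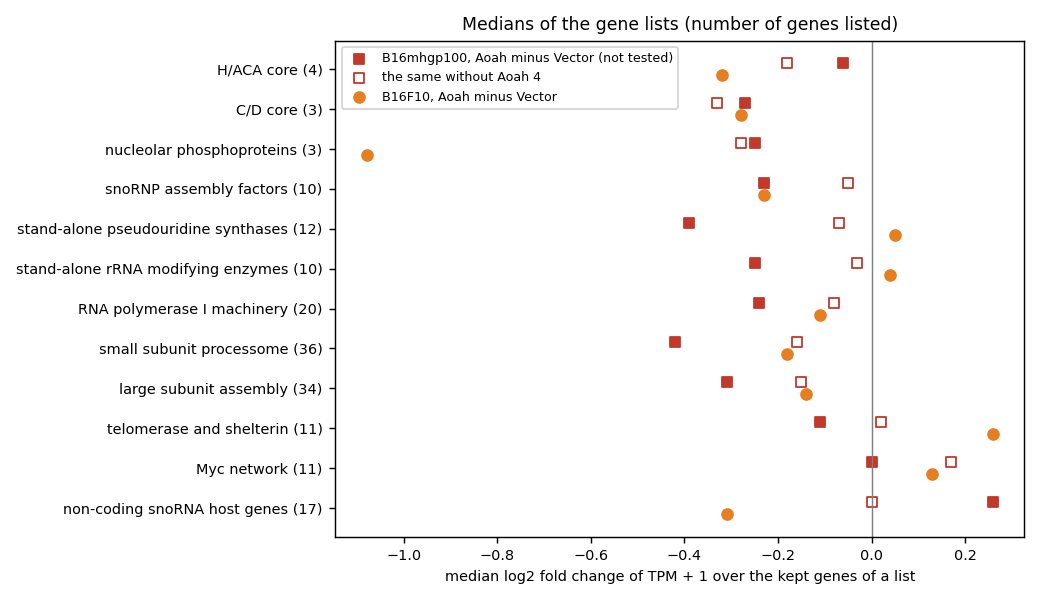
Median log2 fold change of TPM + 1 over the kept genes of each list, Aoah minus Vector, in B16mhgp100 with all libraries (filled squares) and without Aoah 4 (open squares) and in B16F10 (circles); the number in brackets is the genes listed. The nucleolar phosphoproteins lie lowest in B16F10 at -1.08, and in B16mhgp100 the processome lies at -0.42 with all libraries and at -0.16 without Aoah 4, where the C/D core lies at -0.33.

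Between the models, 4 of 36 processome genes and 4 of 34 genes of large subunit assembly were higher in B16mhgp100 in limma, where 3.71% of all genes were. Of the 10 other modification enzymes 1 was higher, and 0 of the assembly factors, guide-free pseudouridine synthases, RNA polymerase I genes, telomerase genes or non-coding hosts passed. Mphosph10, a processome protein, was 1.17 higher (SE 0.19, limma adjusted p = 0.00447), and Gnl3, a nucleolar GTPase known as nucleostemin, 1.25 higher (SE 0.22, limma adjusted p = 0.00735). Nat10, an RNA acetyltransferase, was 0.76 higher (SE 0.15, limma adjusted p = 0.0121). Myc, a transcription factor known to act on genes of ribosome production, averaged 105 TPM in B16mhgp100 Aoah and 98.3 TPM in B16mhgp100 Vector tumours, against 32.4 TPM in B16F10 Aoah and 47.4 TPM in B16F10 Vector tumours. It was 1.32 higher (SE 0.26, limma adjusted p = 0.0121). Mxd4, a repressor of the same network, was lower in B16mhgp100, by a log2 fold change of -1.49 (SE 0.17, limma adjusted p = 0.000658). Of 10 kept genes of the Myc network, 1 was higher and 1 lower past the threshold, and the median was -0.21. Max (-0.18, SE 0.13) and Mxi1 (0.56, SE 0.37) did not pass. Between Aoah and Vector tumours Myc differed by 0.15 in B16mhgp100, or 0.34 without Aoah 4. In B16F10 its log2 fold change of -0.49 (SE 0.29, limma adjusted p = 0.425) did not pass.

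Mki67, a proliferation antigen that coats mitotic chromosomes and sits in the nucleolus in interphase, averaged 23.1 TPM in B16mhgp100 Aoah and 45.9 TPM in B16mhgp100 Vector tumours, against 3.84 TPM in B16F10 Aoah and 24.7 TPM in B16F10 Vector tumours. It was 1.66 higher in B16mhgp100 (SE 0.35, limma adjusted p = 0.0173), and it was the 1 cell cycle marker of 20 that passed there, a share near the 3.71% of all genes that were higher. The 20 markers summed to between 1577 and 3137 TPM in B16mhgp100 Aoah and between 2943 and 3254 TPM in B16mhgp100 Vector tumours, against between 2131 and 2301 TPM in B16F10 Aoah and between 2019 and 3427 TPM in B16F10 Vector tumours. As Aoah minus Vector, the median over the 20 markers was -0.40 in B16mhgp100, with 19 below 0, against -0.20 over all kept genes. Without Aoah 4 it was -0.09, with 19 below 0, against -0.02. In B16F10 it was -0.34, with 15 below 0, against 0.02 over all genes tested, and 0 of the 20 passed in limma. Mki67 had a log2 fold change of -2.18 there (SE 0.59, limma adjusted p = 0.159). The part of the cell cycle in the levels of the 10 genes was not tested.

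The genes whose levels were most like those of Dkc1 over the 12 libraries were found by Pearson's r of log2(TPM + 1) among 10134 genes with a mean of at least 5 TPM. Symbols made of Gm and digits or ending in Rik were left out before ranking. These points share the groups and the libraries, and the values describe likeness only. The 6 highest were Fra10ac1 (r = 0.974), Set (0.962), Ckap2l (0.958), Nusap1 (0.957), Zfp706 (0.947) and Hmmr (0.947), where the median gene had 0.25. Set encodes a histone chaperone, and Ckap2l, Nusap1 and Hmmr encode proteins of the mitotic spindle. Of the other 9 genes, Nolc1 (0.918, rank 44) and Npm1 (0.914, rank 51) were nearest, then Nop58 (0.821) and Nop56 (0.776). The partners of dyskerin were far down, with Gar1 at 0.362, Nop10 at -0.132 and Nhp2 at -0.134. The order depended on Aoah 4. Without it the leading genes were Asnsd1 (0.985), Eif3l (0.977), Fra10ac1 (0.973), Pcgf6 (0.97), Exosc2 (0.966) and Nusap1 (0.966), while Set had rank 8, Ckap2l rank 15, Zfp706 rank 27 and Hmmr rank 41. Without Aoah 4, the values were 0.951 for Nop58, 0.941 for Ncl and 0.932 for Npm1, while Ncl had 0.515 with it. Gar1 then had 0.563, Nop10 -0.129 and Nhp2 0.034.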

How the data were processed

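The authors deposited log2(TPM + 1). Turned back into TPM, a library summed to 992185 to 996590, and values were multiples of 0.01 TPM (tolerance 1e-05) except for 41 of 32416 symbols. Per the submitters' processing notes, RSEM and DESeq2 were used on mm39 (versions not given in the sources used here). Read depth cannot be had from TPM. The authors' deposited tables, 1 per model, hold the mean normalised count (a signal), log2 fold change, test score and p-values. A deposited repertoire table was not used here.

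Per the labels' protocols, polyA RNA with ERCC spike-ins was read as pairs after NEBNext Ultra II preparation, which is not stated to keep strand. The labels give no batch.

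The test was limma 3.58.1 (R 4.3.3) on log2(TPM + 1) with an intensity trend, 2-sided, adjusted by Benjamini-Hochberg over all kept genes, threshold 0.05. A gene entered a fit where it reached 1 TPM in a number of libraries no smaller than the smaller group. This scale understates changes of low genes. B16F10 was fitted alone, and the models with 4 group means over 12 libraries. The script was tested on simulated data. Alternatives were pseudocounts, filters, median-of-ratios scaling, no trend, array weights, a replicate block, leaving out ribosomal and mitochondrial genes, and leaving out each library. Removal of the transcript length trend and the fit of 11 libraries were chosen after seeing the data.

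The 10 genes and the lists were chosen with earlier results of these data known. Named beside them were up to 4 genes of highest mean TPM in a list, genes past the threshold, and the 6 genes most like Dkc1. Some of these are printed.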

Additional observations from a re-analysis of the deposited data

Results flagged for a closer look

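In the groups of 4 tumours, 20 sets of values were checked for a library far from the rest by Dixon's test, which chance alone passes in about 1 in 20 sets. It found 4. Dkc1 at 37.68 TPM in B16mhgp100 Aoah 4 lay far below the other Aoah tumours. Nhp2 at 524.58 TPM and Ncl at 1347.43 TPM in the same library lay far above them. Nhp2 at 275.73 TPM in B16mhgp100 Vector 2 lay far below the other Vector tumours.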

How the results depend on the processing

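In B16F10, 50 genes were past the threshold. There were 32 with a pseudocount of 0.1, 0 with no filter, 80 with a filter at 5 TPM, 128 with median-of-ratios scaling, 16 with no trend, 115 with array weights, 102 after removal of the length trend and 1125 in the fit of 11 libraries. Leaving out 1 library gave 0 to 0 genes, and 0 to 0 of the 10 genes. That leaves 1 tumour in an arm, assumed to vary like the other arm, and says nothing of stability. Of the 10 genes, 0 passed with all 4 libraries and 3 in the fit of 11 libraries, where 50 and 1125 of 14533 genes did. Between the models, 1221 genes passed. There were 2135 with median-of-ratios scaling, 4655 with array weights and 2625 after removal of the length trend. Leaving out 1 library gave 415 to 5303 genes, with 773 without B16mhgp100 Vector 3, 761 without B16mhgp100 Vector 4, 477 without B16F10 Aoah 2 and 551 without B16F10 Vector 2. Of the 10 genes 5 passed, and 1 to 9 without 1 library. The labels do not state that replicate numbers pair the tumours. The titles restart at 1 in each arm, while the descriptions number tumours through both arms of a model. In B16mhgp100, deviations from the arm mean correlated between -0.289 and 0.017 for same-numbered tumours, and between -0.463 and 0.472 for other pairs. In B16F10, the difference of replicate 1 from replicate 2 correlated at -0.108 between the arms. These values do not settle whether tumours were paired. With the replicate block, 765 of 14533 genes and 4 of the 10 passed in B16F10. Between the models it gave 280 of 16556 genes and 0 of the 10. In B16mhgp100, 3 of the 10 genes were separated, 1 with median-of-ratios scaling, 1 after removal of the length trend, and 3 to 5 without 1 library, with 5 both without Aoah 4 and without Vector 2. The direction of Gar1 turned with array weights between the models (-0.01), and ranged from -0.05 to 0.14 without 1 library. In B16F10 Gar1 ranged from -0.22 to 0.18 and Nop56 from -0.68 to 0.12. The cause was not tested. The number of tumours limits B16F10, and depth per library is unknown.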
